A study of Mus musculus with 21 samples.

Results

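The genes described here are Ret, its co-receptor genes Gfra1, Gfra2, Gfra3 and Gfra4, and the ligand genes Gdnf, Nrtn and Artn, 8 of the 24047 genes in the deposited count table. They were chosen by symbol because Ret was already known to rise in these libraries with a histone deacetylase (HDAC) inhibitor at 2 h and 24 h. The values of Ret under the inhibitor therefore chose the set and are given as a description with no test. All other members were tested in every comparison in which they passed the filter on low counts.

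Ret is a receptor tyrosine kinase that binds its ligands only together with a co-receptor. The co-receptors of the GFRα family are held in the membrane by a lipid anchor, and each has a preferred ligand: GDNF for Gfra1, neurturin (Nrtn) for Gfra2, artemin (Artn) for Gfra3 and persephin (Pspn) for Gfra4. Ligand binding brings Ret molecules together, and their phosphorylated tyrosines recruit adaptors that feed the RAS-ERK and PI3K-AKT pathways. The system is best known from the enteric nervous system, the kidney, and sympathetic, sensory, motor and dopaminergic neurons.

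RNA was sequenced from SMB21, a mouse medulloblastoma cell line of the sonic hedgehog (SHH) subgroup, a tumour of the granule neuron lineage of the cerebellum. In the drug experiment the cells received quisinostat (JNJ), an HDAC inhibitor, or DMSO, its solvent, for 2 h or 24 h, which gives the groups DMSO 2 h, JNJ 2 h, DMSO 24 h and JNJ 24 h. In the hairpin experiment a virus carried into them a short hairpin RNA against luciferase (shLuc, the control), Hdac1 (shHdac1) or Hdac2 (shHdac2), and puromycin selected the infected cells in all of them. There are 7 groups of 3 libraries. All come from 1 cell line, grown in DMEM/F12 with B-27, and the labels give no dose and no number of hairpins per gene. Nothing in the labels says that the 3 libraries of a group are separate cultures, so the spread that p-values measure may be technical. These are bulk samples, in which more expressing cells and more RNA per cell cannot be told apart.

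Libraries held 23094799 to 39341784 counted reads (median 31426312), so that 3 counts, the floor used here, are 0.0763 to 0.13 CPM, the counts of a gene scaled to a common library size. Hdac1 fell from 94.7 ± 5.86 CPM in shLuc to 30.6 ± 1.99 in shHdac1 (mean ± SD, n = 3; log2 -1.63, edgeR quasi-likelihood adjusted p = 0.000165). Hdac2 fell from 317.9 ± 23.1 to 50.3 ± 3.08 CPM in shHdac2 (log2 -2.66, adjusted p = 3.49e-06). The 14 granule lineage markers all had counts in every group, and they summed to 1168 to 2638 CPM per library. In the shLuc group replicate 3 had the lowest value of Ret, Gfra1, Gfra4, Gdnf, Nrtn and Artn and the highest of Gfra2. The hairpin results of members and lists that change without it are therefore also given that way. Leaving it out raised the calls over all genes from 102 to 1512 with shHdac1 and from 229 to 1212 with shHdac2.

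Of the 8 members, 7 passed the filter in the drug experiment (all but Gfra3) and 6 in the hairpin experiment (all but Gfra3 and Artn). Nrtn and Gfra1 are the members called higher with JNJ at 24 h, and the sequences around their start sites are shown for that reason. Within the 24 h groups their libraries did not run in parallel: replicate 2 had the highest Nrtn and the lowest Gfra1 of both groups. Gfra4, which was not called in any comparison, is shown beside them. Each is 250 bases before to 50 after an annotated start, from RefSeq on GRCm38.p6, read 5′ to 3′ in the gene's direction. They lie at chr17:56757499-56757798 (Nrtn), chr19:58455349-58455648 (Gfra1) and chr2:131043039-131043338 (Gfra4, the first of its listed starts), all on the minus strand. Capitals mark matches on either strand to the GC box GGGCGG, the cAMP response element core TGACGTCA or the E-box CAGCTG.
Nrtn: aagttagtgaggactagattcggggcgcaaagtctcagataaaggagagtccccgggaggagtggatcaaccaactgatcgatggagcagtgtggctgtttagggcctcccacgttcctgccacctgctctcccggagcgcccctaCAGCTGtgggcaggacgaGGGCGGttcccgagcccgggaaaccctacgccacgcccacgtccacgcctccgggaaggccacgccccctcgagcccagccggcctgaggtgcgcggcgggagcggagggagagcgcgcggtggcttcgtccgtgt
Gfra1: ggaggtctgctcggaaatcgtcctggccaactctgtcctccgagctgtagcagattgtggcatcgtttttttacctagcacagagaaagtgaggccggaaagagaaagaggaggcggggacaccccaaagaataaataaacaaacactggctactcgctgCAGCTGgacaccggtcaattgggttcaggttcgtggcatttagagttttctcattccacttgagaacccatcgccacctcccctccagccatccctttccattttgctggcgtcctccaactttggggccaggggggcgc
Gfra4: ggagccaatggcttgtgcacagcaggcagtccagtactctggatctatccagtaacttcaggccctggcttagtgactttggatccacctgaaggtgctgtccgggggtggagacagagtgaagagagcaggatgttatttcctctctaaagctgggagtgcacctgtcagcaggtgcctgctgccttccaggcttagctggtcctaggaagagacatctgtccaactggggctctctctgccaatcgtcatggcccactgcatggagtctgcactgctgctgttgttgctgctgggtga
The Nrtn window is 66.7% G and C with 28 CpG dinucleotides, the Gfra1 window 54% with 12, and the Gfra4 window 55.7% with 2, against medians of 52.7% and 7 over 32851 promoters. Nrtn holds 1 GC box and 1 E-box, Gfra1 holds 1 E-box, and the Gfra4 window holds no match. The remaining windows, of Gfra4, Artn and Gdnf, do not follow the calls. No window is given here for Ret, Gfra2 or Gfra3. The second listed start of Gfra4 has 1 E-box and 6 CpG. Artn, which was not called, has 2 GC boxes, 1 E-box and 16 CpG. Gdnf, also not called, has no match at either listed start, with 11 and 22 CpG. A GC box is present in 35.7% of promoters of this length, the E-box in 16.3% and the response element core in 1.79%. These matches describe the letters of the windows and nothing else.

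Ret itself was near the floor in all solvent libraries and was well above it after 24 h of JNJ. It had 0.199, 0.136 and 0.259 CPM in the DMSO 2 h libraries (5 to 9 reads each) and 2.35, 0.805 and 0.750 CPM in the JNJ 2 h libraries (22 to 84 reads). At 24 h it had 0.230, 0.362 and 0.310 CPM with DMSO (8 to 14 reads) and 21.2, 19.7 and 27.6 CPM with JNJ (615 to 816 reads). The JNJ and DMSO libraries did not overlap at either time. The fitted change was 6.53-fold at 2 h (log2 2.71, SE 0.48) and 74.6-fold at 24 h (log2 6.22, SE 0.51), a difference of 3.52 on the log2 scale. JNJ 2 h replicate 1 was the highest of its group: without it the 2 h change was 1.95 and the difference between times 4.26 on the log2 scale. None of these values carries a test, since they chose the set.

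**Figure D1:**
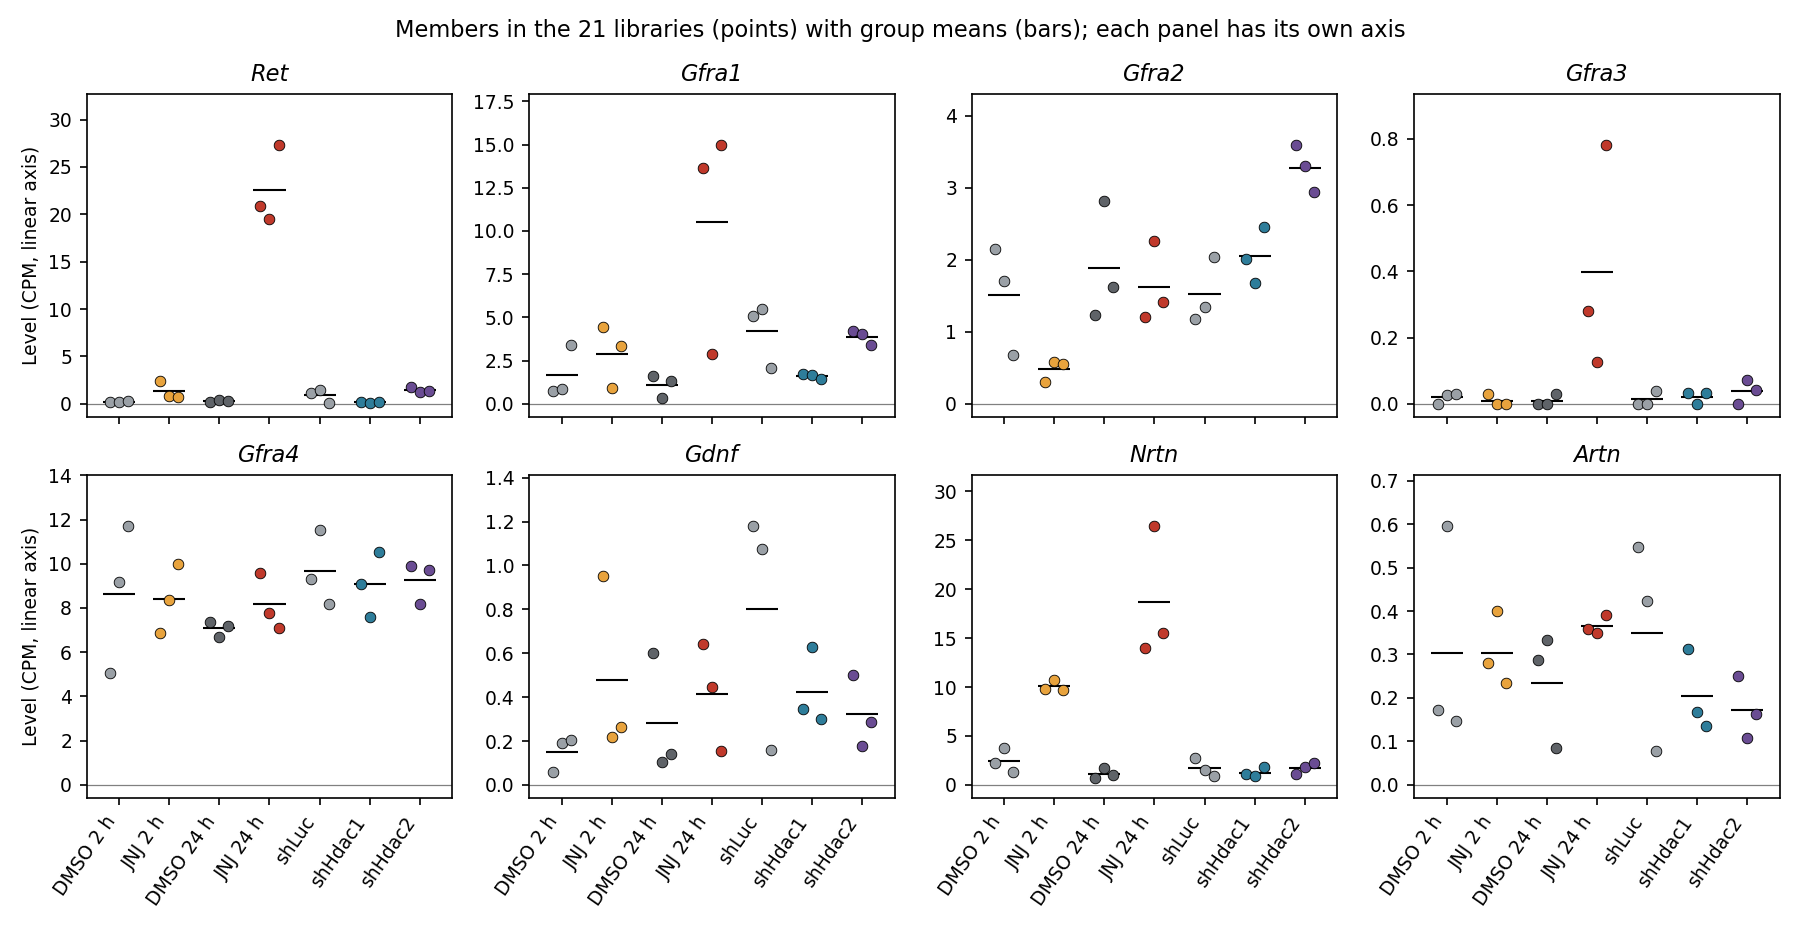
Level of each member in each library (points, CPM scaled over all 21 libraries, linear axis) with the group mean (bar); each panel has its own axis. Ret and Nrtn are highest in the 3 JNJ 24 h libraries, Gfra1 in 2 of them, and the group means of Gfra4 lie between 7.07 and 9.67 CPM on this scale.

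Without the drug, Ret was not called between DMSO 24 h and DMSO 2 h (log2 0.60, SE 0.51, adjusted p = 0.665). No member was called in that comparison of solvents, where 0% of all genes were (edgeR called 0 genes, against 1417 at an unadjusted p under 0.05, 16 called by DESeq2, none of them a member, and 108 with the replicate number as a block). Among the 7 members tested there, 1 had an unadjusted p under 0.05: Nrtn, at 2.43 ± 1.25 CPM at 2 h and 1.13 ± 0.516 at 24 h (log2 -1.10, adjusted p = 0.507), with overlapping libraries.

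Of the ligand genes, Nrtn rose with JNJ at both times. Nrtn encodes neurturin, a survival factor for parasympathetic and enteric neurons. It had 2.22, 3.78 and 1.30 CPM in DMSO 2 h and 9.75, 10.9 and 9.52 CPM in JNJ 2 h. At 24 h it had 0.720, 1.71 and 0.959 CPM with DMSO and 14.2, 26.7 and 15.7 CPM with JNJ. The treated libraries lay above all solvent libraries at both times, with the JNJ 2 h libraries close together and JNJ 24 h replicate 2 the highest. The rise was 4.12-fold at 2 h (log2 2.04, SE 0.42, adjusted p = 0.00688) and 16.6-fold at 24 h (log2 4.05, SE 0.46, adjusted p = 9.2e-05). It was called under all 14 other settings tried at each time. Nrtn was the 1 member called higher of 6 tested at 2 h, where 9.11% of all genes were called higher and 4.59% lower. No member was called lower at 2 h. The change at 24 h exceeded that at 2 h by 2.01 on the log2 scale (SE 0.58, adjusted p = 0.0672), a difference that was not called, although DESeq2 gave an adjusted p of 0.00827 for it and the replicate block one of 0.00929.

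Gdnf and Artn had few reads, at most 34 in a drug library, and were not called at either time. Gdnf encodes the ligand of Gfra1 and had 0.0570, 0.190 and 0.202 CPM in DMSO 2 h against 0.952, 0.219 and 0.260 in JNJ 2 h. The groups did not overlap, and JNJ 2 h replicate 1 stood far above the other JNJ libraries (log2 1.66, SE 0.85, adjusted p = 0.216). At 24 h Gdnf ranged from 0.104 to 0.605 CPM with DMSO and from 0.158 to 0.648 with JNJ (log2 0.59, adjusted p = 0.616). Artn, the ligand of Gfra3, had 0.304 ± 0.255 CPM in DMSO 2 h and 0.304 ± 0.0883 in JNJ 2 h (adjusted p = 0.991). It had 0.288, 0.337 and 0.0846 CPM in DMSO 24 h and 0.363, 0.352 and 0.394 in JNJ 24 h (log2 0.63, SE 0.65, adjusted p = 0.49), without overlap. Artn had 3 to 22 reads per drug library.

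Of the co-receptors, Gfra1 rose with JNJ at 24 h. Gfra1 encodes the partner through which Ret answers GDNF. It had 1.61, 0.362 and 1.30 CPM in DMSO 24 h and 13.8, 2.88 and 15.1 in JNJ 24 h, so that replicate 2 was the low library of both groups and the groups still did not overlap. The rise was 9.71-fold (log2 3.28, SE 0.83, adjusted p = 0.00938), and it was called under all 14 other settings. Within replicate numbers, which pair the 24 h libraries, the ratios were 8.57, 7.95 and 11.6, and with the number as a block the adjusted p was 0.000231. At 2 h Gfra1 had 0.712, 0.843 and 3.31 CPM with DMSO and 4.43, 0.914 and 3.32 with JNJ, groups that overlap (log2 0.84, SE 0.78, adjusted p = 0.51). The difference between the times (log2 2.44, SE 1.11) was not called, with an adjusted p of 0.219, or 0.0265 with the replicate block. Gfra1 shares genome sequence with Gm10007, a long non-coding RNA gene that is also in the table, and with unknown strand counting reads of either may be assigned to the other.

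Thus at 24 h 2 of the 6 members tested were called higher, Nrtn and Gfra1, and none lower, where 18.1% of all genes were called higher and 15.1% lower. The median log2 change of the tested members was 0.61, against 0.01 over all genes. For the difference between times, edgeR called 0 of 6 members, where 4.24% of all genes were called. An unadjusted p under 0.05 was found for 2 of the 6 and for 3176 of all 14467 genes. DESeq2 called 1 of the 6 and 1478 of all genes. The replicate block called 2 of the 6, Gfra1 and Nrtn, and 2132 of all genes.

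**Figure D2:**
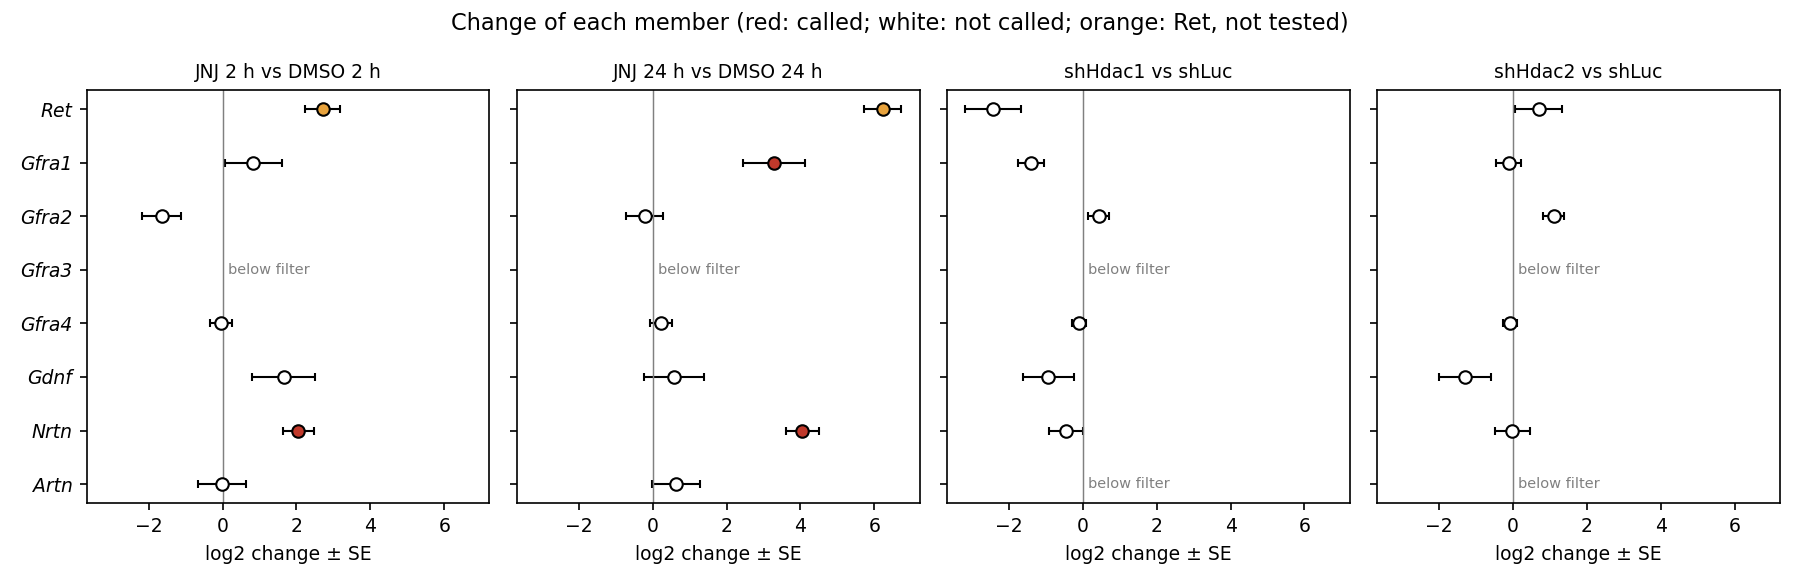
Fitted log2 change (horizontal axis, ± SE) of each member in 4 comparisons. Filled red points, Nrtn at 2 h and Nrtn and Gfra1 at 24 h, are called at an adjusted p under 0.05; orange marks Ret, which was not tested with JNJ; Gfra3 and, in the hairpin libraries, Artn did not pass the filter.

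Gfra2, the co-receptor for neurturin, was not called with JNJ at either time. It had 2.14, 1.71 and 0.662 CPM in DMSO 2 h and 0.308, 0.585 and 0.548 in JNJ 2 h. The JNJ libraries were all below the DMSO libraries, replicate 3 of DMSO by the least (log2 -1.65, SE 0.53, adjusted p = 0.058). The difference was not called. It was called lower with DESeq2 (adjusted p = 0.0238), with all 21 libraries in 1 fit (0.0126) and without DMSO 2 h replicate 3 (0.0247). It was also called lower with the replicate number as a block (0.0252), although at 2 h the libraries numbered 1 do not pair. The adjusted p ran from 0.0126 to 0.206 over 14 other settings. At 24 h Gfra2 had 1.24, 2.85 and 1.61 CPM with DMSO and 1.22, 2.27 and 1.42 with JNJ, with replicate 2 the highest of both groups (log2 -0.21, SE 0.50, adjusted p = 0.777).

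Gfra3, the artemin co-receptor of sensory and sympathetic neurons, had no more than 2 reads in any library outside JNJ 24 h, where it had 11, 4 and 20. The 35 reads of that group stand against 1 read in DMSO 24 h, a ratio of 40.01 with an exact 95% interval of 6.73 to 1620, which covers counting error only. It did not pass the filter; with no filter edgeR gave it an adjusted p of 0.00495. In CPM its JNJ 24 h libraries had 0.285, 0.128 and 0.788.

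Gfra4, the persephin co-receptor, was not called in any comparison. It had 5.01, 9.21 and 11.5 CPM in DMSO 2 h and 6.86, 8.45 and 9.87 in JNJ 2 h (log2 -0.03, SE 0.30, adjusted p = 0.962). It had 7.40, 6.76 and 7.14 CPM in DMSO 24 h and 9.72, 7.84 and 7.17 in JNJ 24 h (log2 0.22, SE 0.30, adjusted p = 0.613). Its group means over all 7 groups were 7.10 to 9.66 CPM, and no neighbours in that order differ beyond their SD.

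Levels can be compared between genes only per exon length. Per kb of exon (exons of GENCODE M21, whose build is not that of the counts), the order in DMSO 24 h was Gfra4 at 4.56 ± 0.226 CPM per kb, Nrtn at 1.10 ± 0.494, Gfra2 at 0.534 ± 0.233 and Gfra1 at 0.235 ± 0.14. Artn (0.108), Gdnf (0.0767), Ret (0.0444) and Gfra3 (0.00474) were below these, and the first 3 of them lie within their spread of each other. In JNJ 24 h Nrtn was first with 18.2 ± 6.62 CPM per kb, ahead of Gfra4 with 5.26 ± 0.832. Ret followed with 3.34 ± 0.615 and Gfra1 with 2.26 ± 1.43, and these last levels lie within their spread of each other. Gfra2 (0.458), Gfra3 (0.199), Artn (0.168) and Gdnf (0.112) came after. Ret thus went from the seventh to the third of the 8 levels, and the transcripts of its ligand genes Gdnf and Artn stayed at the low end of the order.

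**Figure D3:**
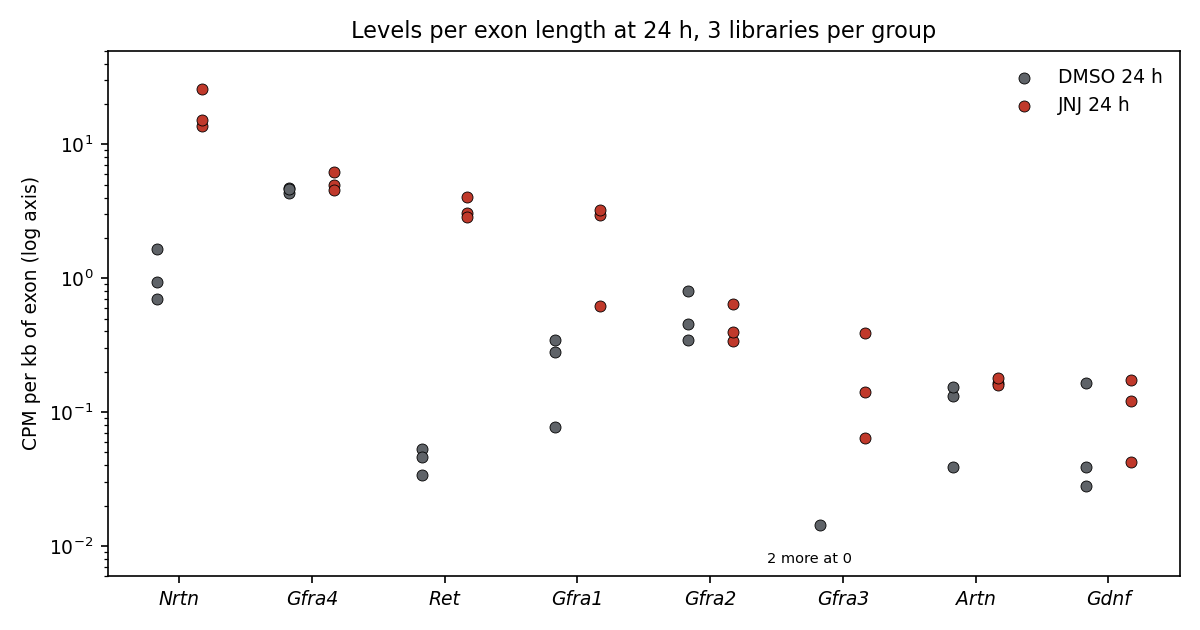
Level per kb of exon (log axis) of each member in the 3 DMSO 24 h libraries (grey) and the 3 JNJ 24 h libraries (red). For Nrtn, Ret and Gfra1, and for Gfra3 and Artn with few reads, all red points are above the grey ones, while those of Gfra2, Gfra4 and Gdnf overlap. Gfra3 had 0 reads in 2 of the DMSO libraries.

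The hairpins against Hdac1 and Hdac2 were tested for all members that passed the filter, Ret included, since the choice of the set did not use them. No member was called in any hairpin comparison. With shHdac1 against shLuc 0.749% of all genes were called, with shHdac2 against shLuc 1.68%, and between shHdac1 and shHdac2 2.06%. Of 6 members tested, 2 had an unadjusted p under 0.05 with shHdac1, 1 with shHdac2 and 3 between the hairpins. Of all 13612 genes, 1687, 2158 and 1948 did. DESeq2 called 1, 1 and 2 of the members, and 580, 892 and 857 of all genes. The comparisons with shLuc share their 3 control libraries.

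Ret had 1.09, 1.47 and 0.117 CPM in shLuc, 0.188, 0.126 and 0.167 in shHdac1, and 1.74, 1.22 and 1.38 in shHdac2. The shHdac1 libraries, with 3 to 6 reads each, were near shLuc replicate 3 and below the other shLuc libraries. Against shLuc, Ret in shHdac1 was not called (log2 -2.43, SE 0.75, adjusted p = 0.206); without shLuc replicate 3 it was called lower (log2 -2.95, adjusted p = 0.00369). In shHdac2 it was also not called (log2 0.70, SE 0.63, adjusted p = 0.658). All shHdac2 libraries were above all shHdac1 libraries (log2 of shHdac1 against shHdac2 -3.12, SE 0.74), with an adjusted p of 0.0705 that does not pass. With the replicate number as a block, which pairs the hairpin libraries, that adjusted p was 0.0414, with DESeq2 0.00425 and with only these 6 libraries 0.00988.

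Gfra1 was likewise lowest in shHdac1. It had 5.09, 5.48 and 2.03 CPM in shLuc, 1.69, 1.68 and 1.41 in shHdac1 and 4.17, 4.06 and 3.40 in shHdac2. The shHdac1 libraries were the lowest 3 of the 9. The difference from shLuc (log2 -1.40, SE 0.36, adjusted p = 0.138) and from shHdac2 (log2 -1.28, SE 0.36, adjusted p = 0.119) was not called. Both were called with the replicate block (0.0489 and 0.0395) and with DESeq2 (0.0136 and 0.0211), and the first also without shLuc replicate 3 (0.00329). In shHdac2 against shLuc the log2 change of Gfra1 was -0.11 (adjusted p = 0.915).

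Gfra2 was highest in shHdac2. It had 1.18, 1.35 and 2.03 CPM in shLuc, 2.00, 1.68 and 2.44 in shHdac1 and 3.58, 3.31 and 2.91 in shHdac2, where all libraries were above all others. The difference between shHdac2 and shLuc (log2 1.10, SE 0.28, adjusted p = 0.102) was not called; the adjusted p was 0.0477 with the replicate block, 0.0131 with DESeq2 and 0.0184 without shLuc replicate 3. Nrtn had 1.71 ± 0.937 CPM in shLuc, 1.24 ± 0.471 in shHdac1 and 1.70 ± 0.538 in shHdac2 (adjusted p = 0.793 and 0.995 against shLuc). Gfra4 had 9.66 ± 1.77, 9.05 ± 1.43 and 9.24 ± 0.907 CPM in these groups. Gdnf had 0.805 ± 0.564, 0.425 ± 0.179 and 0.320 ± 0.162 CPM (log2 -0.93 with shHdac1 and -1.30 with shHdac2, adjusted p = 0.688 and 0.412). Artn, with 2 to 13 reads per library, and Gfra3, with at most 2, were not tested.

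Other genes of the pathway were taken from lists written from general knowledge. At the level of the receptor, 2 of 6 partners tested rose with JNJ at 24 h and none fell, where 18.1% of all genes were called higher and 15.1% lower (list median log2 0.44, against 0.01 over all genes). Ncam1, a cell adhesion molecule that also binds GDNF, had 168.5 ± 15.5 CPM with DMSO and 273 ± 43.9 with JNJ (log2 0.70, adjusted p = 0.0485). Sorl1, a sorting receptor for GDNF and Gfra1, had 4.17 ± 1.27 and 8.65 ± 2.90 CPM (log2 1.05, adjusted p = 0.036). Leaving out 1 of DMSO 24 h replicates 1 and 2 or of JNJ 24 h replicates 2 and 3 ended each call, with adjusted p of 0.0820 to 0.166, and that of Ncam1 ended also without DMSO 24 h replicate 3 (0.0942) or JNJ 24 h replicate 1 (0.0586). Leaving out DMSO 24 h replicate 1 or either of JNJ 24 h replicates 2 and 3, or the filter, left the list with no call. It had 4 calls with the replicate block, which called 6633 of all 14467 genes. Pspn, the ligand for Gfra4, had 6 reads over the DMSO 24 h libraries and 3 over those of JNJ. Gfral, the Ret co-receptor for GDF15, had 2 and 1.

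Among 27 tested adaptors and effectors of Ret, 9 rose and 1 fell with JNJ at 24 h, beside 18.1% of all genes called higher and 15.1% lower (median log2 0.27). Dok4, an adaptor that binds phosphorylated Ret, rose from 11.6 ± 1.30 to 35.5 ± 3.53 CPM (log2 1.62, SE 0.22, adjusted p = 0.000235). It had also risen at 2 h, from 12.2 ± 2.35 to 36.2 ± 8.50 CPM (log2 1.57, SE 0.22, adjusted p = 0.000954). Rap1gap, which switches off the small GTPase Rap1, rose from 33.6 ± 12.6 to 164 ± 56.3 CPM at 24 h (log2 2.29, adjusted p = 0.000235). The gene that fell was Src, a tyrosine kinase that binds Ret, from 60.0 ± 2.89 to 23.0 ± 1.92 CPM (log2 -1.38, SE 0.17, adjusted p = 0.00013). At 2 h Dok4 alone rose of the 27, beside 9.11% of all genes called higher and 4.59% lower. Cd2ap, a scaffold for receptor turnover, fell at 2 h (log2 -0.56, adjusted p = 0.0412). The Cd2ap call was lost without DMSO 2 h replicate 1 or 2 (0.137 and 0.0504) and without JNJ 2 h replicate 1 or 2 (0.14 and 0.082). It was also lost with library totals as scaling (0.0506) and in a fit of these 6 libraries alone (0.183).

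Dok4 was also the 1 gene of 26 adaptors and effectors called with shHdac1 (0.749% of all genes were), in the opposite direction to JNJ. It had 12.5 ± 0.425 CPM in shLuc, 6.28 ± 0.207 in shHdac1 and 12.7 ± 0.855 in shHdac2. The fall with shHdac1 (log2 -0.99, SE 0.13, adjusted p = 0.0157) kept its size when libraries were left out (-1.01 to -0.96 over 14 settings), but the call was lost without shLuc replicate 1 or 2 or shHdac1 replicate 1 or 2 (adjusted p of 0.0924 to 0.108). Without shLuc replicate 3, 4 of the list were called with shHdac1 and 2 with shHdac2 (0 with it), where 1512 and 1212 of all genes were. For Dok4 in shHdac1 against shHdac2 the log2 difference was -1.01 (adjusted p = 0.00703).

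Genes that ERK signalling induces as feedback, the Sprouty, Spred, Dusp and Etv genes, gave 1 rise among 12 tested at 24 h and none at 2 h. Over all genes, 18.1% were called higher at 24 h and 9.11% at 2 h. Dusp5, a nuclear ERK phosphatase, rose from 35.3 ± 11.7 to 87.1 ± 25.1 CPM (log2 1.31, SE 0.30, adjusted p = 0.00556). The list's median change was 0.07 at 24 h and -0.05 at 2 h, against 0.03 over all genes at 2 h. With the replicate block, 3 of the 12 were called at 24 h, 2 with shHdac1 (0 without the block) and 2 with shHdac2 (1 without it). Over all genes the block called 6633 of 14467 at 24 h, and 523 and 801 of 13612 with these hairpins. Without shLuc replicate 3, 4 were called with shHdac1, where calls over all genes went from 102 to 1512. With shHdac2, Spred2, an inhibitor of RAS-ERK signalling, was lower (log2 -0.43, adjusted p = 0.0357), a call lost without any 1 library other than shLuc replicate 3 among those compared (adjusted p of 0.0742 to 0.162).

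Transcription factors of cells that normally express Ret were called higher in 6 of 12 cases at 24 h and lower in none, beside 18.1% of all genes called higher (median log2 1.58). Some had few reads outside JNJ 24 h, such as Pax2 with 6 over the DMSO 24 h libraries. These could pass the filter through their JNJ 24 h reads, so the count and the median support nothing by themselves. With shHdac1 none of 11 was called, and 1 was without shLuc replicate 3, where 1512 of all genes were. Gata2, a factor of blood and neural lineages, rose from 0.710 ± 0.318 to 13.9 ± 1.92 CPM (log2 4.28, SE 0.43, adjusted p = 5.82e-05). It was the one of 12 that rose at 2 h (log2 4.08, adjusted p = 0.000286), where 9.11% of all genes were called higher. Pax2, a factor of the kidney and midbrain, had 0.0541 ± 0.047 CPM in DMSO 24 h and 0.651 ± 0.233 in JNJ 24 h (log2 3.49). Since Pax2 could pass the filter through its JNJ 24 h reads, its call supports nothing by itself. Lmx1b, a factor of dopaminergic and serotonergic neurons, rose from 0.465 ± 0.344 to 2.90 ± 0.300 CPM (log2 2.62, adjusted p = 0.00314). Sox10, a factor of enteric progenitors and glia, had 4 reads over the DMSO 24 h libraries and 1 over those of JNJ.

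Of 18 markers of neurons that depend on this ligand family, 6 had enough reads for a test, and 5 of these rose at 24 h, beside 18.1% of all genes called higher (median log2 3.42). Members that passed only through their JNJ 24 h reads had to differ, so this count and this median support nothing by themselves. Calca, which encodes the sensory peptide CGRP, rose from 0.244 ± 0.265 to 3.27 ± 1.17 CPM (log2 3.73, adjusted p = 0.00647). Slc6a3, the dopamine transporter gene, had 48 reads against 0 in DMSO 24 h, at least 18.3-fold higher against a floor of 3 counts over the group. Calca and Slc6a3 could pass the filter through their JNJ 24 h reads, so their calls support nothing by themselves. Th, which encodes the first enzyme of dopamine and noradrenaline synthesis, had 16 reads over the DMSO 24 h and 3 over the JNJ 24 h libraries, and Dbh and Slc5a7 had 0 over the latter. The list summed to 5.42 to 34.7 CPM per DMSO 24 h library and to 25.9 to 44.6 CPM per JNJ 24 h library. These sums overlap, and JNJ 24 h did not have the highest. At 2 h the libraries had 7.32 to 39 CPM under DMSO and 37.11 to 99.52 CPM under JNJ. The shLuc control libraries reached sums of 35.05 to 71.75 CPM without the drug. Those of shHdac2 had 8.92 to 26.24 CPM and those of shHdac1 20.85 to 22.82 CPM. None of the 6 was called with either hairpin. Without shLuc replicate 3, 1 was with each, where 1512 of all genes were called with shHdac1 and 1212 with shHdac2.

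**Figure D4:**
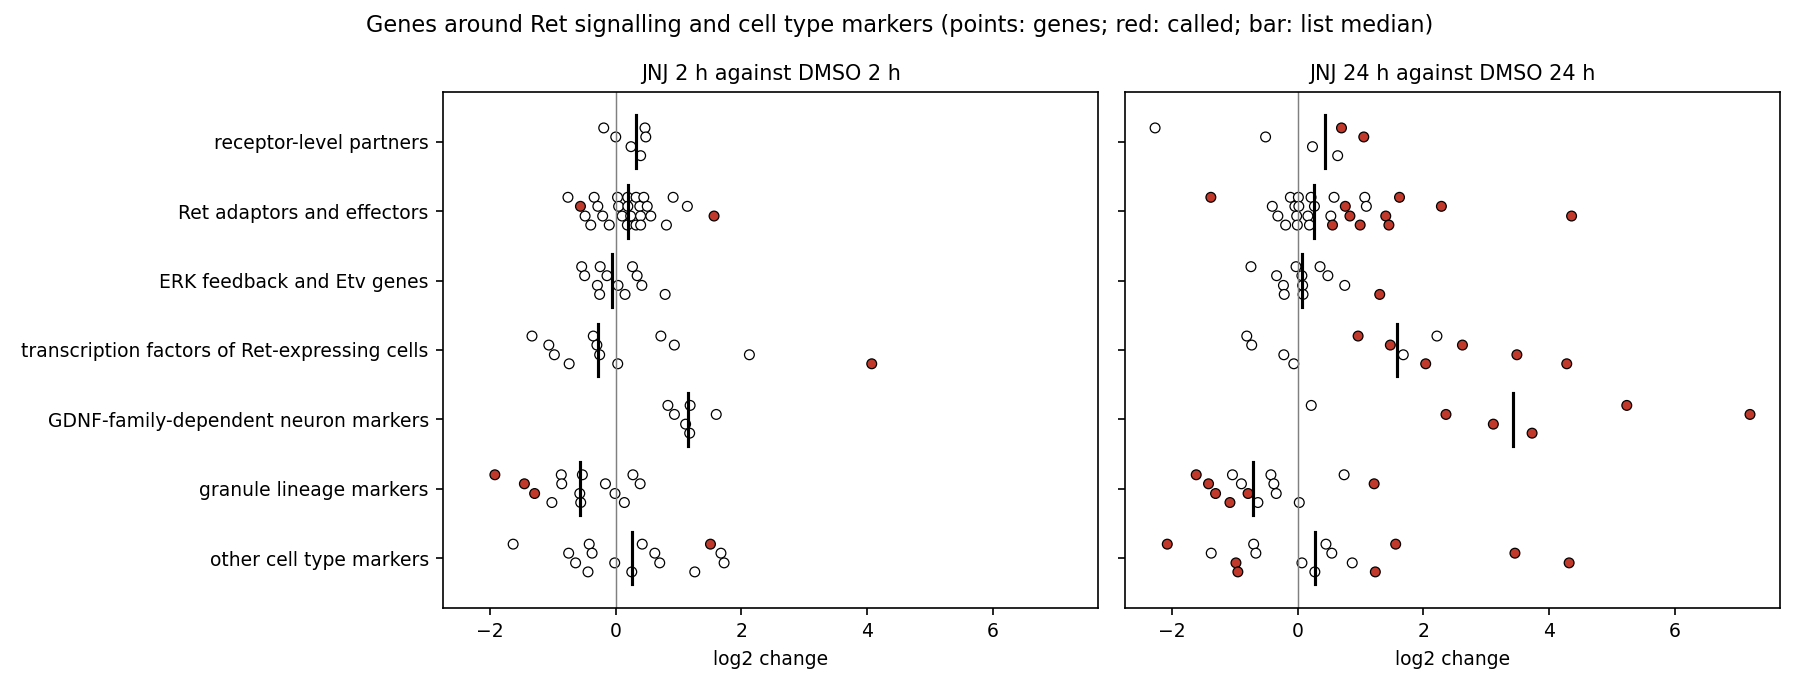
Fitted log2 change (horizontal axis) of each tested gene of the 7 lists at 2 h and 24 h of JNJ; red points are called and black bars are list medians. The granule lineage markers have a median of -0.71 at 24 h. The neuron markers have one of 3.42, over the 6 of 18 that passed the filter. Some could pass through their JNJ 24 h reads, so this median supports nothing by itself. Slc6a3, the rightmost point at 24 h, is drawn at its fitted value although its DMSO 24 h libraries are at 0.

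Of the 14 granule lineage markers, 5 fell and 1 rose at 24 h (median log2 -0.71), where 15.1% of all genes were called lower and 18.1% higher. At 2 h 3 fell (median -0.57), where 4.59% of all genes were called lower. Atoh1, the factor that keeps granule progenitors in their state, had 475 ± 74.5 CPM in DMSO 24 h and 225 ± 45.2 in JNJ 24 h (log2 -1.08, adjusted p = 0.00161). Barhl1 (log2 -1.62, adjusted p = 0.00183) and Insm1 (log2 -1.31, adjusted p = 0.00786), factors of the same lineage, fell with it. At 2 h Atoh1, Barhl1 and Insm1 fell by 1.29, 1.46 and 1.93 on the log2 scale (adjusted p = 0.0017, 0.00799 and 0.00255). With shHdac2, Barhl1 was lower (log2 -0.80, adjusted p = 0.0373), a call lost without any 1 compared library other than shLuc replicate 3 (0.0921 to 0.178). With the replicate block, 5 of the 14 were called with shHdac1 and 4 with shHdac2, and without shLuc replicate 3, 2 and 3. Over all genes the block called 523 and 801, and the fit without shLuc replicate 3 called 1512 and 1212. The list summed to 1553 to 2217 CPM per JNJ 24 h library, below the 2304 to 2638 CPM of DMSO 24 h.

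Of 15 tested markers of other cell types, 4 rose and 3 fell at 24 h, beside 18.1% of all genes called higher and 15.1% lower. Leaving out DMSO 24 h replicate 1 or 3 or JNJ 24 h replicate 3 left 4 calls in all. With the hairpins none was called, and without shLuc replicate 3, 3 were with shHdac1 and 1 with shHdac2, where 1512 and 1212 of all genes were. The fibroblast collagen gene Col1a1 rose from 0.867 ± 0.594 to 17.5 ± 8.32 CPM (log2 4.32, adjusted p = 0.00103), while Col3a1, of the same cells, fell from 3.23 ± 0.161 to 0.759 ± 0.472 CPM (adjusted p = 0.00951). Calb1, of Purkinje cells, rose from 1.12 ± 0.777 to 12.4 ± 1.03 CPM (log2 3.46, adjusted p = 0.00127), and Slc1a3, of astrocytes, fell from 230 ± 25.6 to 116 ± 17.9 CPM (log2 -0.98, adjusted p = 0.00366). Cspg4, of oligodendrocyte progenitors and pericytes, was the 1 marker called at 2 h (log2 1.51, adjusted p = 0.0303), beside 9.11% of all genes called higher. That call was lost without DMSO 2 h replicate 1 or 3 or without JNJ 2 h replicate 1 or 2 (0.0551 to 0.17). The Purkinje cell gene Pcp2 had reads in JNJ 24 h and none in DMSO 24 h or any other group. The leukocyte gene Ptprc had 2 reads in DMSO 24 h and 4 in JNJ 24 h. The list summed to 290.8 to 330.2 CPM per DMSO 24 h library and to 265 to 287 per JNJ 24 h library, but to 298.8 to 316.6 CPM per DMSO 2 h library and to 333.1 to 665.2 per JNJ 2 h library. The part of cell type markers in the changes of Ret, Gfra1 and Nrtn was not tested.

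The protein-coding genes next to the members, by RefSeq order, gave mixed values at 24 h. Next to Ret, Bms1 had 222 ± 7.96 CPM in DMSO 24 h and 184 ± 9.95 in JNJ 24 h (log2 -0.27, adjusted p = 0.246), and Csgalnact2 had 25.9 ± 3.64 and 41.3 ± 3.68 (log2 0.67, adjusted p = 0.0607). Csgalnact2 was lower with shHdac2 than with shLuc (log2 -1.05, adjusted p = 0.0146), where Ret had a log2 change of 0.70. That call ended without shLuc replicate 1 or 2 (0.0645 and 0.0545), without shHdac2 replicate 1 or 2 (0.0909 and 0.0908), with all 21 libraries in 1 fit (0.0673) and with the compared groups only (0.0585). Next to Nrtn, Dus3l fell at 24 h (log2 -0.73, adjusted p = 0.0141) and Ndufa11 was not called (log2 0.45, adjusted p = 0.125). The call of Dus3l ended with library totals as scaling (0.0702), without DMSO 24 h replicate 2 (0.053) and without JNJ 24 h replicate 3 (0.0643). Next to Gfra1, Atrnl1 rose from 42.1 ± 8.81 to 92.7 ± 15.1 CPM (log2 1.14, SE 0.19, adjusted p = 0.000827). Next to Gfra3, Cdc23 fell (log2 -0.61, adjusted p = 0.0126) and Cdc25c was not called (log2 -0.14, adjusted p = 0.735). The call of Cdc23 ended with library totals (0.0731) and without JNJ 24 h replicate 3 (0.0548). Next to Gfra4, Adam33 had 58 reads in JNJ 24 h (3 to 42 per library) against 2 in DMSO 24 h (adjusted p = 0.0128) and Atrn was not called (log2 0.41, adjusted p = 0.181). The call of Adam33 ended without DMSO 24 h replicate 3 (0.0504) or JNJ 24 h replicate 1 (0.06). Adam33 could pass the filter through its JNJ reads, so its call supports nothing by itself. The neighbours of Artn (Ipo13 and St3gal3), Gdnf (Wdr70 and Egflam) and Gfra2 (Dok2) were not called at 24 h, with log2 changes of 0.11 to 0.55.

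The genes whose pattern over the 21 libraries was most like that of Ret were Stac2, Klc3, Elmod1, Tmem255a and Slc17a7, with Pearson's r of log2 CPM of 0.973, 0.951, 0.951, 0.948 and 0.943 among 11885 genes. The libraries share their treatment, and the 3 JNJ 24 h libraries weigh heavily: over the other 18, r was 0.904, 0.827, 0.832, 0.795 and 0.802. By Spearman's rho, 2 of the 5, Klc3 and Elmod1, stayed in the top 5. Slc17a7, a vesicular glutamate transporter gene, had 1.58 ± 0.188 CPM in DMSO 24 h and 36.4 ± 7.72 in JNJ 24 h. Stac2 had 11.2 ± 3.30 and 151 ± 7.58 CPM. Of the members themselves, Nrtn had an r of 0.765 and Gfra1 one of 0.743 with Ret, Artn 0.379, Gdnf 0.28, Gfra4 0.0271 and Gfra2 -0.0912. Without the JNJ 24 h libraries the order was Gfra1 0.648, Gdnf 0.467, Nrtn 0.451, Artn 0.239, Gfra4 0.214 and Gfra2 -0.208. These correlations describe the libraries and carry no test.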

How the data were processed

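The deposited table holds whole, unnormalized counts by gene symbol, made by the authors for each library. STAR 2.5.1b and the mm9 build are named per the submitters' processing notes. How strand, annotation and multi-mapping were handled is not given in the sources used here. Counts were fitted with edgeR 4.0.16 in R 4.3.3 (group as the only term, filterByExpr with minimum count 10 and total 15, TMM, two-sided quasi-likelihood tests, Benjamini-Hochberg over all genes tested), the 12 drug libraries (14467 genes) apart from the 9 hairpin libraries (13612). Called means an adjusted p under 0.05. Other settings included DESeq2 1.42.0, other scalings, no filter and leaving out libraries. The code was tested on simulated data.

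Members and lists were chosen with earlier results of these data known. All members are named, with up to 3 called genes per list by lowest p, the 5 genes most like Ret, nearest neighbours, Hdac1 and Hdac2. Pspn, Gfral, Sox10, Th, Dbh, Slc5a7, Col3a1, Pcp2 and Ptprc were named beyond this rule. Not every gene meeting it is reported here.

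Residuals of equally numbered libraries correlated above 0.1 at 24 h (0.568, 0.648 and 0.606) and in each pair of hairpin groups (0.205 to 0.74). At 2 h replicates 2 and 3 did so as well (0.647 and 0.585), but replicate 1 did not (0.00048).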

Additional observations from a re-analysis of the deposited data

Results flagged for a closer look

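4 named genes of the pathway and marker lists had an effect of JNJ that differed between 24 h and 2 h by edgeR's test of the difference itself. Over all genes 614 of 14467 (4.24%) were called for it, and 145 to 2132 under other settings. The 4 had been named for their calls at 2 h or 24 h, and the difference uses the same values. Their number and their adjusted p therefore support nothing by themselves, and their calls under other settings are not given. Calb1 rose more at 24 h (difference in log2 change 4.10, SE 0.85, adjusted p = 0.0215), as did Rap1gap (2.39, adjusted p = 0.013). Src (-0.98, adjusted p = 0.0349) and Slc1a3 (-1.61, adjusted p = 0.0151) changed downward at 24 h relative to 2 h. At 2 h none of these 4 was called, with log2 changes of -0.64 for Calb1, -0.10 for Rap1gap, -0.40 for Src and 0.62 for Slc1a3.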

How the results depend on the processing

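The calls of Nrtn at 2 h and 24 h and of Gfra1 at 24 h kept their direction and their side of the threshold in all 14 other settings. The count of members called at 2 h, 1, was 2 with DESeq2, with the replicate block and with all 21 libraries in 1 fit, and 1 to 2 with 1 library left out. For the difference between times, 0 became 1 with DESeq2, 2 with the replicate block, 1 with all 21 libraries, and 0 to 1 with 1 library left out. For shHdac1 against shLuc, 0 became 1 with DESeq2, 1 with the replicate block and 0 to 2 with 1 library left out (2 without shLuc replicate 3). For shHdac2 against shLuc it became 1, 1 and 0 to 1. Between the hairpins it became 2 with DESeq2, 2 with the replicate block, 1 with all 21 libraries and 2 with the compared groups only. At 24 h the count of 2 ran from 2 to 3 with 1 library left out. The replicate block changed no other member's call. Over all genes, DESeq2 called 2789 at 2 h, 1478 for the difference, 580 with shHdac1, 892 with shHdac2 and 857 between the hairpins. The replicate block called 3455, 2132, 523, 801 and 886 in the same order.

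Some uncalled members changed sign. With the replicate block, Artn at 2 h had a log2 change of 0.11. With 1 library left out, the log2 changes of JNJ ran from -0.37 to 0.89 for Artn and -0.33 to 0.21 for Gfra4 at 2 h, and from -0.53 to 0.18 for Gfra2 at 24 h. For the difference they ran from -0.27 to 1.00 for Artn, -1.53 to 0.10 for Gdnf and -0.0045 to 0.54 for Gfra4. Between the solvents they ran from -0.69 to 0.57 for Artn, -0.29 to 1.31 for Gdnf, -0.97 to 0.49 for Gfra1, -0.063 to 0.68 for Gfra2 and -0.54 to 0.0039 for Gfra4. With shHdac1 against shLuc they ran from -0.21 to 0.058 for Gfra4 and -0.80 to 0.051 for Nrtn. With shHdac2 they ran from -0.44 to 0.12 for Gfra1, -0.17 to 0.086 for Gfra4 and -0.31 to 0.50 for Nrtn. Between the hairpins they ran from -0.0013 to 0.86 for Gdnf and -0.16 to 0.083 for Gfra4. The cause was not tested.

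Over all genes, calls ran from 650 to 3455 at 2 h (1982 as reported), 145 to 2132 for the difference (614), 0 to 108 between the solvents (0), 2 to 1512 for shHdac1 (102; 1512 without shLuc replicate 3), 12 to 1212 for shHdac2 (229) and 30 to 886 between the hairpins (280). Scaling by library totals moved the median log2 change at 24 h from 0.01 to 0.17 and the share of calls that were higher from 54.5 to 68.3%. Upper-quartile scaling gave 63.8% there, 54.5 in place of 66.5% at 2 h, and 81.8 in place of 59.1% for the difference (library totals 79.9%). Gfra3, Gdnf, Artn and, outside JNJ 24 h, Ret had few reads per library.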
